A study of Homo sapiens with 16 samples.

Results

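The mitochondrial protein import machinery was followed as 37 genes among the 60719 gene identifiers of the count tables. They were chosen by name and function, with earlier results of these data known. The 37 genes comprised 11 genes of the outer membrane, 1 cytosolic co-chaperone, 8 genes of the intermembrane space, 14 genes of the inner membrane and its motor, and 3 genes of the matrix. All 37 were found, and 36 had enough counts to be tested. The data were counts of mRNA reads from MDA-MB-231 cells, an established triple-negative breast cancer line, in 16 libraries. Untreated parental 231 cells (wild-type TXNIP) and untreated 231:TKO cells, in which TXNIP was deleted by CRISPR/Cas9, had 2 replicates each. The other 12 libraries, 3 replicates per group, were parental 231 and 231:TKO cells that received a non-targeting siRNA (siNT) or an siRNA against MYC (siMyc) for 48 hours. The study isolated its TXNIP knockout clones from single cells, so the knockout and the origin of a clone cannot be told apart in comparisons of 231:TKO with parental 231. The comparisons asked how the import genes differed between the populations, and how they answered loss of MYC in each.

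Almost all mitochondrial proteins are made in the cytosol and carried across the outer membrane by the TOM complex, whose receptors pass them to a central channel. From there the small TIM chaperones escort carrier and barrel proteins through the intermembrane space, the SAM complex builds barrels into the outer membrane, and the TIM22 and TIM23 complexes insert or translocate proteins at the inner membrane. An Hsp70 motor pulls matrix proteins inward, and a peptidase there removes their targeting sequences. MYC is known as an activator of many genes for growth and mitochondrial biogenesis.

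The libraries held between 18953668 and 59799444 counts, so that 3 counts corresponded to between 0.0502 and 0.158 CPM (counts scaled to a common library size, here with the TMM factors of edgeR). The 95% exact interval of a member's count had a half-width of 1.37% to 49.4% of the count (median 4.65%), widest for PAM16 with 18 counts in parental 231 replicate 2, and covers counting error only. TXNIP stood at 290 and 291 CPM in untreated parental 231 and at 12.6 and 46.6 CPM in untreated 231:TKO, and among the siRNA libraries at 297 to 459 CPM in parental 231 and 6.56 to 10.2 CPM in 231:TKO. MYC fell in both siMyc comparisons, by 1.21 on the log2 scale in 231:TKO and by 0.96 in parental 231. VIM, CD44, AXL, MSN and CAV1, which mark the mesenchymal state of this line, lay between 565.5 and 3088 CPM, while the hormone receptor genes ESR1 and PGR did not exceed 0.313 CPM. ERBB2 lay at 74.3 to 106.5 CPM and EPCAM, an epithelial marker, at 12.5 to 32.1 CPM. Parental 231+siNT replicate 1 and parental 231+siMyc replicate 3 stood apart from the other parental siRNA libraries: their deviations from their group means correlated at 0.90 across 13521 genes. Deviations within a group cancel out, so those of the other parental siRNA libraries together ran opposite to this pair by construction. The parental siMyc and siNT results are given below with and without this pair. The counts are of single reads in the untreated libraries and of read pairs in the siRNA libraries, so levels are tested only within each of these sets. The sets were also scaled separately, so a level named across both sets is a description only.

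TOMM6, a small TOM subunit, had 0 counts in all 16 libraries. All 637 of its exon bases lay inside another gene on the same strand (ENSG00000124593, 24 to 358 counts), so its reads could not be assigned and nothing can be said of its level. Another 8 members shared some exon bases with a gene on the same strand. For TOMM5 these were ENSG00000255872 and ENSG00000256966, with 0 to 13 counts. TIMM23 has a close copy, TIMM23B, and reads could be divided between them.

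Per kilobase of exon, the members spanned a wide range in the siNT controls. In 231:TKO+siNT the highest was TIMM23, the channel of the presequence translocase, at 87.0 ± 2.37 CPM per kilobase (SD, n = 3), followed by the TOM receptor TOMM20 at 78.6 ± 1.97. TOMM34, HSPA9, TOMM40 and TIMM10 came next, at 57.8 ± 2.70, 54.1 ± 0.662, 52.0 ± 1.90 and 50.1 ± 1.63, and neighbours among these 4 differed by little more than their spread. The lowest measured members were TIMM21 at 3.87 ± 0.146 and PAM16 at 2.46 ± 0.285. In parental 231+siNT the order began with TIMM23 at 96.9 ± 14.3 and TOMM34 at 95.2 ± 2.79, which did not differ beyond their spread, and ended with PAM16 at 3.65 ± 0.866 and GRPEL2 at 2.78 ± 0.0194.

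After siMyc in 231:TKO, 22 of the 36 tested members fell and 0 rose. Among all 22450 genes tested, 13.9% fell and 13.3% rose (27.2% together), and among the 13491 genes above 1 CPM 42.8% were called in either direction, against 61.1% of the members. The median member changed by -0.29 on the log2 scale, beside 0.01 over all genes, and the members' CPM summed to 2153, 2181 and 2212 in the siMyc libraries against 2723, 2744 and 2736 in the siNT libraries. In bulk RNA, less RNA per cell and a changed mix of cells cannot be told apart. Outer membrane genes fell in 5 of 10 cases (median -0.16), intermembrane space genes in 6 of 8 (median -0.29) and inner membrane genes in 9 of 14 (median -0.34). In a single fit of all 12 siRNA libraries, 8 of the 22 were not called (TOMM22, TIMM8B, TIMM9, TIMM10, TIMM13, TIMM23, TIMM50 and PAM16, adjusted p from 0.074 to 0.329), and their estimates lay between -0.52 and -0.20. The difference of the outer and inner membrane medians was 0.18, and this difference between lists was not tested.

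**Figure D1:**
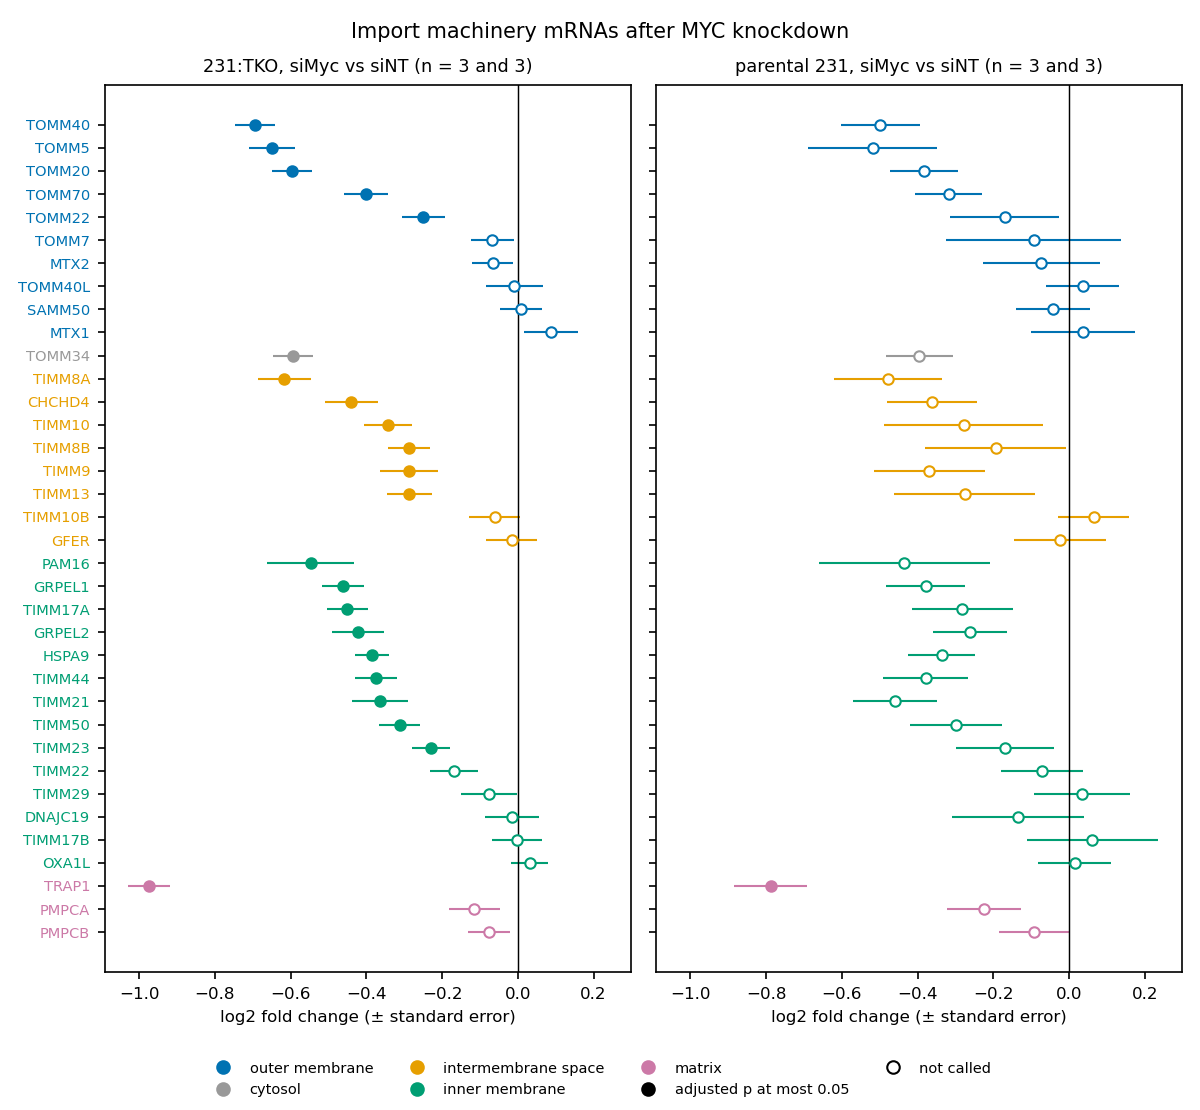
Log2 fold change (siMyc against siNT) of the 36 tested members, with standard errors, in 231:TKO (left) and parental 231 (right), coloured by compartment. Filled points passed an adjusted p of 0.05 in edgeR. In 231:TKO, 22 members are filled and all of these lie left of 0. In parental 231 only TRAP1 is filled, and the points keep much the same order with wider error bars.

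TRAP1, the Hsp90 chaperone of the matrix (chr16:3651639-3717553, minus strand, GRCh38), changed most. It stood at 76.5, 75.5 and 76.0 CPM in 231:TKO+siNT and at 39.3, 40.6 and 38.5 CPM in 231:TKO+siMyc, a fall of 0.97 on the log2 scale (SE 0.055, adjusted p = 7.07e-11, quasi-likelihood test of edgeR). The 2 groups were far from overlapping, and the replicates within each lay within a few CPM of one another. The processing peptidase subunits PMPCA and PMPCB, also in the matrix, had log2 fold changes of -0.11 and -0.08 and were not called.

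Within the TOM complex, the channel and the receptors fell while several other outer membrane genes were not called. TOMM40, the beta-barrel channel (chr19:44890569-44903689), stood at 184.6, 195.6 and 183.1 CPM with siNT and at 120.1, 123.9 and 111.3 CPM with siMyc, a fall of 0.69 (SE 0.053, adjusted p = 4.21e-09). TOMM5, a small subunit of the channel complex (chr9:37582646-37592604), stood at 57.3, 53.7 and 59.4 CPM and then at 35.6, 36.1 and 39.1 CPM, a fall of 0.65 (SE 0.061, adjusted p = 6.45e-08). The lowest siNT library lay above the highest siMyc library for both genes. Of the receptors, TOMM20 went from 274.1, 262.5 and 274.3 CPM to 171.1, 178.3 and 197.3 CPM, a fall of 0.60 (SE 0.053, adjusted p = 2.99e-08). TOMM70, the receptor for carrier proteins, fell by 0.40 (SE 0.059, adjusted p = 1.91e-05), and TOMM22, the central receptor, fell by 0.25 (SE 0.057, adjusted p = 0.00179). The small subunit TOMM7 had a log2 fold change of -0.07 (SE 0.056), and the SAM complex genes SAMM50, MTX1 and MTX2 had 0.01, 0.09 and -0.07; none of these 4 was called. TOMM34, a cytosolic co-chaperone of precursor proteins, fell by 0.59 (SE 0.053, adjusted p = 3.48e-08), from between 110.0 and 120.0 CPM to between 75.0 and 78.5 CPM.

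In the intermembrane space, TIMM8A (chrX:101345661-101348742), a small TIM chaperone whose loss causes a deafness and dystonia syndrome, stood at 19.6, 19.8 and 20.4 CPM with siNT and at 13.2, 12.9 and 13.7 CPM with siMyc. Its fall of 0.62 (SE 0.071, adjusted p = 9.62e-07) was the largest of the compartment. CHCHD4, the oxidoreductase that traps cysteine-rich precursors, fell by 0.44 (SE 0.069, adjusted p = 4.62e-05), while GFER, which reoxidises it, had a log2 fold change of -0.02 (SE 0.067) and was not called. The chaperones TIMM10, TIMM8B, TIMM9 and TIMM13 fell by 0.34, 0.29, 0.29 and 0.29. TIMM9 did not pass without 231:TKO+siNT replicate 1 (-0.23) or without 231:TKO+siMyc replicate 2 (-0.22). TIMM10B, which docks small TIM chaperones at the carrier translocase, had -0.06 and was not called.

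At the inner membrane, the 9 members that fell belong to the presequence translocase or its motor. TIMM17B and DNAJC19, of the same machinery, were not called, so the calls do not follow this division. PAM16, a regulator of the motor's J-domain protein, had the largest estimate, a fall of 0.55 (SE 0.11, adjusted p = 0.000939), at a low level of 5.06 to 6.39 CPM with siNT and 3.82 to 4.28 CPM with siMyc. GRPEL1, a nucleotide exchange factor of the motor, stood at 62.8, 63.2 and 62.7 CPM and then at 47.7, 45.4 and 46.7 CPM, a fall of 0.46 (SE 0.055, adjusted p = 1.44e-06). TIMM17A, a core subunit of the TIM23 complex, went from 115.5, 117.0 and 112.3 CPM to 82.8, 82.4 and 92.1 CPM, a fall of 0.45 (SE 0.054, adjusted p = 1.72e-06). GRPEL2, HSPA9 (the Hsp70 itself), TIMM44, TIMM21, TIMM50 and TIMM23 fell by 0.42, 0.38, 0.37, 0.36, 0.31 and 0.23. The carrier translocase genes TIMM22 and TIMM29 had -0.17 (adjusted p = 0.0552) and -0.08, and OXA1L, TIMM17B and DNAJC19 lay between -0.02 and 0.03; these 5 were not called.

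**Figure D2:**
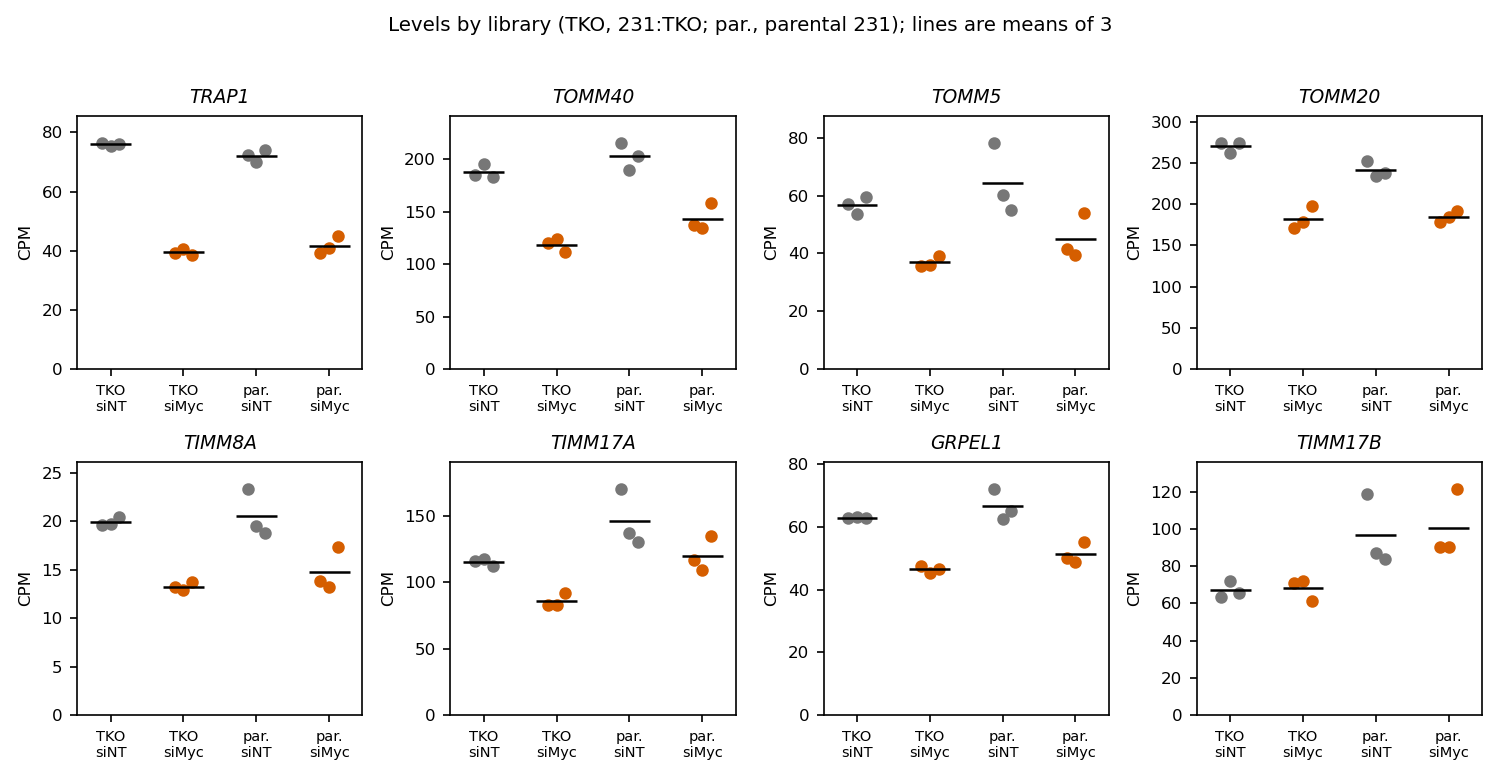
CPM of 8 members in the 12 siRNA libraries (grey, siNT; orange, siMyc; lines, means of 3), each axis starting at 0. In 231:TKO the siMyc points of TRAP1, TOMM40, TOMM5, TOMM20, TIMM8A, TIMM17A and GRPEL1 lie below all siNT points, while those of TIMM17B do not. In parental 231 the highest siNT point is replicate 1 for every gene shown but TRAP1, and the highest siMyc point is replicate 3 for all 8.

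In parental 231, siMyc gave a similar median but few calls. The members with the largest falls in 231:TKO had smaller estimates here, which a choice by the 231:TKO values can give by itself. The difference between the populations is taken up below. TOMM40, TOMM20 and TOMM34 were at -0.50, -0.38 and -0.40 on the log2 scale, none of them called. TRAP1 fell from 72.3, 70.0 and 74.0 CPM to 39.4, 40.9 and 44.9 CPM, by 0.79 on the log2 scale (SE 0.096, adjusted p = 0.0378 by edgeR). It was the only member called, beside 0.354% of all 23728 genes lower and 0.24% higher (0.594% together). TRAP1 did not pass when any 1 of parental 231+siNT replicate 2, parental 231+siNT replicate 3, parental 231+siMyc replicate 1 or parental 231+siMyc replicate 2 was left out (log2 fold change -0.81 to -0.76), nor with a replicate block (-0.79). The median member changed by -0.27, and 30 of 36 were negative. The biological coefficient of variation was 15.5%, against 5.26% in the 231:TKO comparison. The pair of libraries that stood apart spread the members: TOMM7, for example, was at 113.4 CPM in siNT replicate 1 and 98.1 CPM in siMyc replicate 3, and at 66.9 to 69.6 CPM in the other 4. TOMM5 was at 78.2 and 54.1 CPM in those libraries, at 60.2 and 54.99 CPM in the other siNT libraries and at 41.5 and 39.4 CPM in the other siMyc libraries.

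With a term for this pair, chosen after the libraries had been seen, 23 members fell and 0 rose, against 13.1% of all genes lower and 13.7% higher. All genes include weakly expressed ones, and the share among genes above 1 CPM is not given for this fit or for the fit without the pair. The median member was again at -0.27. These 23 included all 22 that fell in 231:TKO, that is 100% of the 231:TKO list and 95.7% of the parental list, and the 231:TKO and parental siMyc comparisons have no library in common. PMPCA, the alpha subunit of the processing peptidase, was the exception, with -0.23 in that fit (SE 0.049, adjusted p = 0.000229). A planned fit with 1 surrogate variable gave 23 members as well, of which 22 were in the 231:TKO list. With the pair left out, 21 members fell (10.9% of all genes fell and 9.94% rose in that fit), and 20 of these were in the 231:TKO list; TIMM8B and TIMM23 were not called. For none of these fits was the sharing with 231:TKO counted over all genes, so it cannot be read as particular to the import genes. The share of all genes called with the surrogate variable is not given. In the fit with the term, TOMM5 fell by 0.52 (SE 0.047, adjusted p = 1.48e-12), TOMM40 by 0.50 (SE 0.042, adjusted p = 1.37e-13), TIMM8A by 0.48 and TIMM21 by 0.46. Outer membrane genes fell in 5 of 10 cases (median -0.12), intermembrane space genes in 6 of 8 (median -0.28) and inner membrane genes in 9 of 14 (median -0.27).

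The size of the siMyc response was compared between the populations as an interaction in 1 edgeR fit of the 12 siRNA libraries. No member was called (0% of 25812 genes were called, 1039 had an unadjusted p under 0.05 and DESeq2 called 6 genes), none of the 36 members had an unadjusted p under 0.05, and DESeq2 called 0 members. The differences, 231:TKO minus parental 231, ran from -0.18 for TOMM20 to 0.15 for DNAJC19. Their 95% intervals reached from -0.64 for PAM16 to 0.63 for TOMM7 and had a median half-width of 0.29. With the term for the pair the intervals reached from -0.38 for PAM16 to 0.33 for DNAJC19, with a median half-width of 0.16, and again 0 members were called. The outer bounds belong to single members, and each interval holds the differences compatible with that member's own estimate. The data do not show that the populations answered alike. Across the 36 members, the log2 fold changes of the populations had a Pearson r of 0.94 and a Spearman rho of 0.93, with the same sign in 31; this is a description over genes, which share libraries and are not replicates.

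Within each library, 6 pairs of related genes were compared as log2 ratios of CPM, a measure that the scaling of the library does not touch. Each change was tested by an exact two-sided permutation of siMyc and siNT within each population (400 arrangements, smallest possible p = 0.005), with Benjamini-Hochberg adjustment over the 6. The ratio of TOMM40 to TOMM40L, a homologue of the channel, was 2.79, 2.79 and 2.90 in 231:TKO+siNT and 2.03, 2.27 and 2.14 in 231:TKO+siMyc. In parental 231 it was 2.68, 2.61 and 2.73 with siNT and 2.00, 2.10 and 2.31 with siMyc. Its mean change was -0.61 (p = 0.005, adjusted p = 0.01, exact permutation), and TOMM40L itself lay at 24.5 to 34.2 CPM in all 12 libraries. The ratio of TIMM17A to TIMM17B, alternative subunits of the TIM23 complex, changed by -0.45 in 231:TKO and -0.34 in parental 231 (p = 0.005, adjusted p = 0.01, exact permutation). TIMM17B had log2 fold changes of 0.00 and 0.06 in the 2 populations. The ratio of TIMM8A to TIMM8B changed by -0.33 and -0.30 (p = 0.005, adjusted p = 0.01, exact permutation), with both genes lower in 231:TKO. For these 3 pairs no siMyc library overlapped the siNT libraries of its population. The ratios of GRPEL1 to GRPEL2, MTX1 to MTX2 and PMPCA to PMPCB had mean changes of -0.08, 0.13 and -0.09, with exact permutation p = 0.085, 0.07 and 0.21, which missed the threshold.

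**Figure D3:**
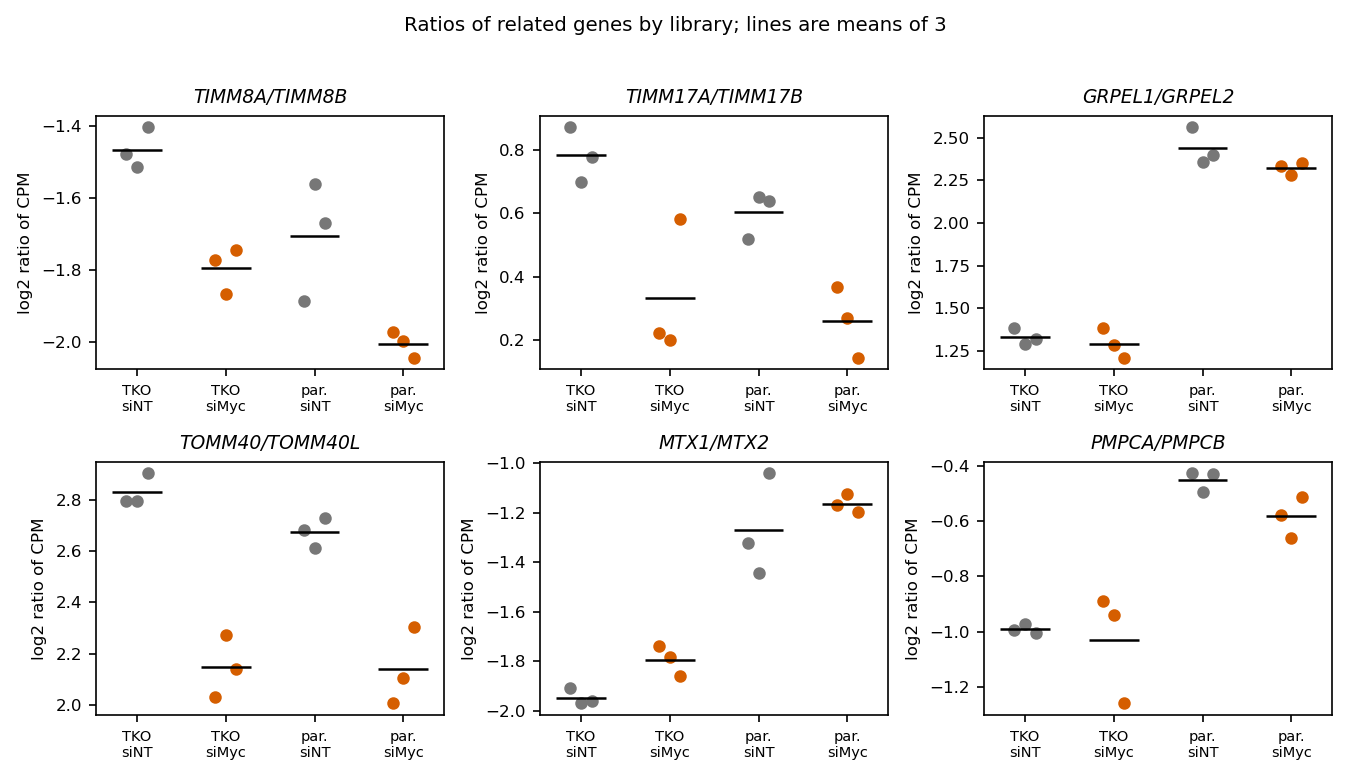
Log2 ratio of CPM of 6 pairs of related genes in each of the 12 siRNA libraries (grey, siNT; orange, siMyc; lines, means of 3). In both populations the siMyc points lie below the siNT points for TIMM8A/TIMM8B, TIMM17A/TIMM17B and TOMM40/TOMM40L; for the other 3 pairs the points of at least 1 population overlap. Axes differ between panels and do not start at 0, since a log ratio has no true zero level.

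The promoters of the members were searched for 2 short motifs because MYC with its partner MAX is known to bind CACGTG and, more weakly, related letters such as CACGCG. RefSeq promoters of GRCh38.p14 (250 bases before to 50 after the start) were at hand for 34 of the 37 members, not for TOMM5, TIMM8B or GRPEL1. CACGTG, which reads the same on both strands, occurred in 4 of 34 members (11.8%), and in 7.26% of all 35116 promoters. Among genes above 1 CPM the share was 14.6% of those that fell, 11.8% of those not called and 12.2% of those that rose after siMyc in 231:TKO. The share over all members lay within this range. By response, CACGTG lay in 4 of the 19 members that fell and have a promoter (21.1%) and in 0 of the 14 not called. Shares over all promoters count entries, while those over members and genes above 1 CPM count genes. CACGCG on either strand (CGCGTG when read on the other) or CACGTG occurred in 15 of 34 members (44.1%) and in 17.4% of all promoters. By response to siMyc in 231:TKO, CACGTG or CACGCG lay in 12 of the 19 members that fell and have a promoter (63.2%) and in 2 of the 14 that were not called (14.3%). Over all genes above 1 CPM the same shares were 36.3% of 2384 that fell, 30.7% of 5852 that were not called and 28.6% of 2162 that rose. These are counts of letters and were not tested, and they do not show binding. The 4 stretches below belong to members that fell; capitals mark the motifs, the TOMM20, HSPA9 and TIMM10 stretches hold CACGTG, and the TRAP1 stretch holds CACGCG and, nearer to the start, CGCGTG.
TOMM20 (chr1:235128980-235129025, minus strand): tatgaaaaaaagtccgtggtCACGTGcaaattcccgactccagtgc
HSPA9 (chr5:138575395-138575440, minus strand): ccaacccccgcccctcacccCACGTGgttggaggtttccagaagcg
TIMM10 (chr11:57530735-57530775, minus strand): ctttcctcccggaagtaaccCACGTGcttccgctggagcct
TRAP1 (chr16:3717517-3717683, minus strand): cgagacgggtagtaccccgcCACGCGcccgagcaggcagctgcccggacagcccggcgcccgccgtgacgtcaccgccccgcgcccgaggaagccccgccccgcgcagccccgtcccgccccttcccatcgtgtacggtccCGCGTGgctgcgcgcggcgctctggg

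CACGTG began at base -168 of TOMM20, -19 of HSPA9, -1 of TIMM10 and 29 of TIMM8A, counted from the RefSeq start with no base 0. TIMM10 fell by 0.34 in 231:TKO, from 39.5, 39.7 and 37.4 CPM to 31.8, 32.5 and 29.5 CPM (SE 0.063, adjusted p = 0.000248). HSPA9 fell by 0.38 (SE 0.045, adjusted p = 1.31e-06), from 521.5, 533.4 and 531.9 CPM to 401.3, 407.8 and 430.3 CPM.

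Of 29 other genes of import, processing and protein folding in mitochondria, 28 were tested in 231:TKO after siMyc, and 10 fell and 1 rose. These were 39.3% of the list, against 42.8% of the genes above 1 CPM, so the count was near that of expressed genes. HSPD1 and its partner HSPE1, the chaperonin that folds imported proteins, fell by 0.88 (SE 0.047, adjusted p = 4.49e-11) and 0.55 (SE 0.052, adjusted p = 7.84e-08). IMMP2L, an inner membrane peptidase, fell by 0.40, and TIMM23B, the close copy of TIMM23, by 0.35. MTCH1, an outer membrane protein, rose by 0.19 (adjusted p = 0.00701). In parental 231, HSPD1 was the only one of 29 to be called, with a fall of 0.70 (SE 0.097, adjusted p = 0.0378).

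Between the untreated populations, 8 members were higher in 231:TKO and 0 were lower, beside 5.43% and 4.18% (9.61% together) of the 19965 genes tested; 22.2% of the members were called, against 13.8% of the 12818 genes above 1 CPM. The median member was at 0.14 on the log2 scale, against 0.00 over all genes. Outer membrane genes were higher in 4 of 10 cases (median 0.27), intermembrane space genes in 3 of 8 (median 0.27) and inner membrane genes in 1 of 14 (median 0.12). TOMM5 stood at 1.88 and 2.76 CPM in parental 231 and at 6.83 and 7.55 CPM in 231:TKO, a difference of 1.63 (SE 0.24, adjusted p = 0.022), on 36 to 215 counts per library. In the siRNA libraries, counted as read pairs, TOMM5 lay at 35.6 to 78.2 CPM, far above its untreated level. Such gaps were not limited to TOMM5. TIMM8B was also higher in the siRNA libraries, at 45.0 to 86.4 CPM, and GRPEL2 was lower there, at 9.91 to 25.9 CPM. The cause of these gaps was not tested. TIMM8B (chr11:112084800-112086798) stood at 11.8 and 12.8 CPM in untreated parental 231 and at 24.6 and 25.8 CPM in untreated 231:TKO, a difference of 1.03 (SE 0.10, adjusted p = 0.0107). For both genes the groups were further apart than the whole range within either group. TIMM9, TIMM13, MTX2, TOMM22, TOMM7 and GRPEL1 were higher by 0.57, 0.49, 0.48, 0.43, 0.40 and 0.38, with adjusted p from 0.0241 to 0.0499. In this comparison TXNIP itself, at -3.29, had an adjusted p of 0.0587, and the library 231:TKO replicate 2 held more TXNIP than replicate 1. Fits without 1 of these libraries leave 1 sample in a group. None of the 8 calls held in every such fit, and the median member lay between 0.07 and 0.161.

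Some of these differences moved with the members' place in the genome. The median gene of the 20 Mb window that holds MTX2 was higher in 231:TKO by 0.45 on the log2 scale, that of GRPEL1 by 0.41 and that of TIMM8B by 0.35. With offsets for such windows, MTX2 was at 0.03 (adjusted p = 0.879), GRPEL1 at -0.03 (adjusted p = 0.803) and TIMM8B at 0.68 (adjusted p = 0.0197). TOMM5, whose window was at -0.06, was at 1.69 (adjusted p = 0.0159). The difference of the outer and inner membrane medians was 0.16 without the offsets and -0.06 with them. CDH1, an epithelial marker, lay at 4.24 to 9.31 CPM in parental 231 and 0.272 to 1.07 CPM in 231:TKO over all libraries, and PTPRC, a leukocyte marker, at 0.575 to 1.51 CPM and at most 0.14 CPM; their part in these results was not tested.

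**Figure D4:**
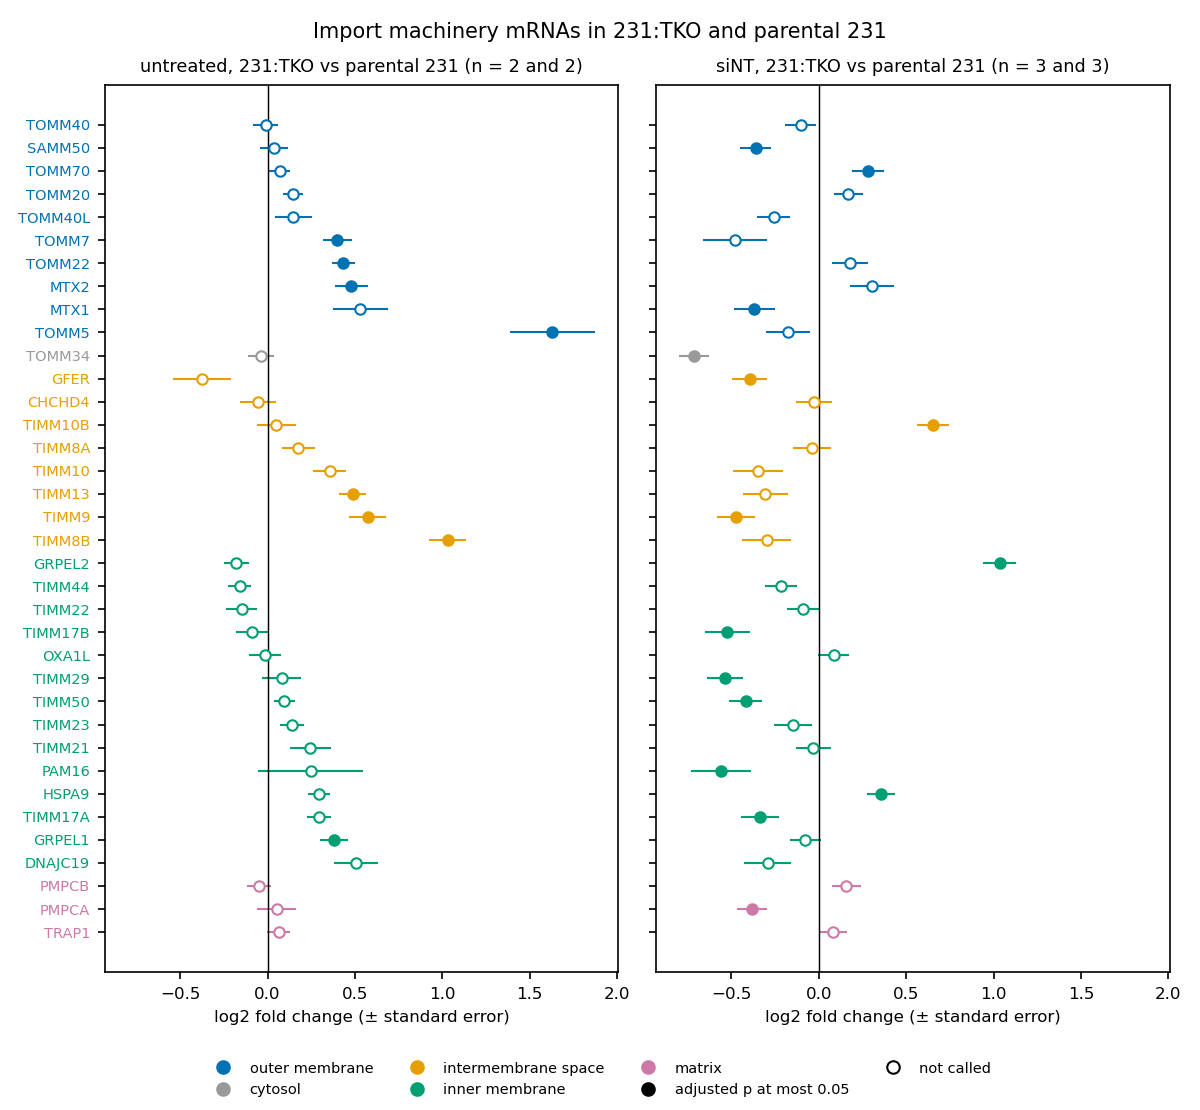
Log2 fold change of the 36 tested members in 231:TKO against parental 231, with standard errors, without siRNA (left) and with siNT (right), on 1 common axis and coloured by compartment. Filled points passed an adjusted p of 0.05 in edgeR. On the left 8 points are filled, all above 0, led by TOMM5 at 1.63; on the right 4 filled points lie above 0, led by GRPEL2 at 1.03, and 11 below.

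The populations were also compared in the siNT controls. Of 36 members, 4 were higher in 231:TKO+siNT and 11 were lower than in parental 231+siNT, beside 16.1% and 20.7% (36.8% together) of the 23310 genes tested, and the median member was at -0.20. Among the 13521 genes above 1 CPM 50.8% were called in either direction, against 41.7% of the members, so the members' count was not above that of expressed genes. The siRNA libraries of the populations were counted on different Ensembl releases, and the file headers name their alignments as different sets, so population and set cannot be told apart. GRPEL2 (chr5:149345430-149354583), the second nucleotide exchange factor of the motor, stood at 12.2, 12.2 and 12.4 CPM in parental 231+siNT and at 24.1, 25.9 and 25.1 CPM in 231:TKO+siNT, a difference of 1.03 (SE 0.092, adjusted p = 7.56e-06). TIMM10B stood at 13.6, 13.7 and 12.8 CPM and at 20.5, 21.4 and 21.1 CPM, a difference of 0.65 (SE 0.093, adjusted p = 0.000237). HSPA9 and TOMM70 were higher by 0.36 and 0.28. TOMM34 had the most negative value, -0.71 (SE 0.084, adjusted p = 6.09e-05), with 110.0, 120.0 and 111.9 CPM in 231:TKO+siNT and 189.7, 181.6 and 192.1 CPM in parental 231+siNT. PAM16, TIMM29, TIMM17B, TIMM9, TIMM50, GFER, PMPCA, MTX1, SAMM50 and TIMM17A lay between -0.56 and -0.34 with adjusted p of at most 0.0295. Among outer membrane genes TOMM70 was higher and SAMM50 and MTX1 lower, and among inner membrane genes 2 were higher and 5 lower.

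Without parental 231+siNT replicate 1, the library that stood apart, 8 members were higher and 14 lower, and the median member was at -0.08. The share of all genes called in that fit is not given, so these counts are not set against other genes. PAM16 was then at -0.33, TIMM17B at -0.33, TIMM29 at -0.42, TIMM9 at -0.35, MTX1 at -0.23 and TIMM17A at -0.19, all still called, while GRPEL2, TIMM10B and TOMM34 were at 1.05, 0.69 and -0.69. TIMM8B was at -0.07 and TOMM5 at 0.01, neither called, and MTX2 and TOMM22 were called as higher, at 0.47 and 0.30. With offsets for 20 Mb windows TOMM70, MTX1, TIMM29 and PAM16 did not pass (0.22, -0.27, -0.23 and -0.44). Leaving out single libraries lost the calls of TOMM70, MTX1, TIMM17A, TIMM17B, PAM16 or GFER, with each value keeping its direction: 5 of these 6 without 231:TKO+siNT replicate 1, 3 without replicate 2, 4 without replicate 3, TOMM70 without parental 231+siNT replicate 2 and MTX1 without parental 231+siNT replicate 3. TOMM5 had a log2 fold change of -0.18 (adjusted p = 0.308) with siNT and TIMM8B -0.30 (adjusted p = 0.125), beside 1.63 and 1.03 in the untreated cells. TIMM9 was the only member called in both comparisons of the populations with all libraries, higher in untreated 231:TKO (0.57) and lower with siNT (-0.47). HSPA9 was at 0.29 untreated (adjusted p = 0.0528) and 0.36 with siNT. Of the other import genes, 28 were tested in each comparison of the populations. With siNT 6 were higher and 7 lower, or 46.4%, against 50.8% of the genes above 1 CPM. Without siRNA 4 were higher and 0 lower, or 14.3%, against 13.8%. Neither share stood clearly above that of expressed genes. Among these genes, MTX3, a metaxin, was higher with siNT by 1.18 (adjusted p = 2.59e-05), and MTCH1 and CLPP, a matrix protease, were at -1.11 and -0.92. Without siRNA, COX18, an inner membrane insertase, was higher by 0.88 (adjusted p = 0.0167), and HSPE1 and HSPD1 were higher by 0.63 and 0.56.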

How the data were processed

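Poly(A)-selected, stranded mRNA libraries were aligned by the authors to GRCh38 with STAR and counted on genes with featureCounts 1.6.3 on the reverse strand by the largest overlap; the deposited values are raw counts, without normalization or filtering. Per the file headers, counts are of single reads (untreated) or read pairs (siRNA), on Ensembl release 102, or release 104 for the siRNA-treated parental 231 libraries. Of the 37 members, 36 have the same length in both releases. The members and lists were chosen with earlier results of these data known.

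Genes with more than 5 counts summed over a comparison's libraries were tested with edgeR 4.0.16 (R 4.3.3): TMM scaling, robust quasi-likelihood fit, no covariate, Benjamini-Hochberg adjustment over all genes tested, threshold 0.05. Standard errors are log2 fold changes divided by the square root of F. All members are accounted for. Those described in full are up to 8 called members per comparison with the largest change, TOMM5, every outer membrane member called and 6 pairs of related genes, with up to 4 other pathway genes. The scripts were tested on simulated data. Library depth ranged from 18953668 to 59799444 counts. Samples were grouped by their labels. The study calls the untreated libraries and the siRNA-treated TXNIP-knockout libraries biological replicates. For the siRNA-treated parental libraries the study does not state the kind of replicate. Alternatives were DESeq2 1.42.0, its size factors in edgeR, other count filters, an adjusted p of at most 0.01, a replicate block, 1 fit of the 12 siRNA libraries, offsets for 20 Mb windows, 1 surrogate variable (sva 3.50.0), genes of equal length in both releases, and each replicate left out. CPM of untreated and siRNA libraries were scaled separately.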

Additional observations from a re-analysis of the deposited data

Results flagged for a closer look

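Members whose groups were free of overlap in both comparisons of the populations, untreated and with siNT, fell into 6 with the 231:TKO libraries on the same side of the parental 231 libraries in both (TOMM20, TOMM70, GFER, TIMM44, HSPA9 and TRAP1) and 12 on opposite sides. Of these 12, 9 were called in at least 1 of the comparisons and are given here, and TOMM40L, TIMM10 and DNAJC19 were called in neither. The same count was not made over all genes, so 6 and 12 cannot be read as particular to the import genes. The difference between the settings was not tested, and the settings differ in siRNA treatment, read layout and replicate number. TIMM8B had a log2 fold change of 1.03 untreated and -0.30 with siNT, TIMM9 0.57 and -0.47, MTX1 0.53 and -0.37, TIMM13 0.49 and -0.31, and TOMM7 0.40 and -0.48. TIMM17A had 0.29 and -0.34, PAM16 0.25 and -0.56, and TIMM50 0.10 and -0.42. GRPEL2 went the other way, with -0.18 untreated and 1.03 with siNT. Without parental 231+siNT replicate 1, the library that stood apart, most of the siNT values were closer to 0. TIMM8B was then at -0.07, TIMM13 at -0.11, TOMM7 at -0.17, TIMM17A at -0.19, MTX1 at -0.23, TIMM50 at -0.32, PAM16 at -0.33, TIMM9 at -0.35 and GRPEL2 at 1.05, and TIMM8B and TIMM13 had adjusted p of 0.403 and 0.14 by edgeR.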

How the results depend on the processing

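The 22 members lower after siMyc in 231:TKO became 14 (median -0.26) in 1 fit of the 12 siRNA libraries, and leaving out each library gave 21 to 23 (median -0.31 to -0.28). In parental 231 the 1 member lower became 0 at an adjusted p of at most 0.01, 8 with DESeq2, 2 without a filter, 12 in 1 fit of the 12 siRNA libraries, 23 with 1 surrogate variable, 23 with a term for the pair of libraries and 21 without them (the last 2 chosen after seeing the data); leaving out each library gave 0 to 1, a median of -0.31 to -0.13 and an outer minus inner membrane difference of 0.008 to 0.18. For untreated 231:TKO, 8 higher became 0 at an adjusted p of at most 0.01; leaving out each library gave 0 to 18 higher, 0 to 4 lower, a median of 0.07 to 0.16 and an outer minus inner difference of 0.12 to 0.22. Offsets for windows turned that difference to -0.058 and GRPEL1 to -0.033. With siNT, 4 higher and 11 lower became 8 and 20 with 1 surrogate variable; leaving out each library gave 3 to 8 higher, 7 to 14 lower, a median of -0.26 to -0.076 and an outer minus inner difference of 0.02 to 0.069, which was 0.185 with offsets for windows and 0.078 over genes of equal length. For the difference of the siMyc responses, leaving out each library gave medians of -0.175 to 0.024 and outer minus inner differences of -0.041 to 0.037. The cause was not tested. Apart from the fits with the pair term or without the pair, no share over all genes stands beside the counts under alternatives, here or below. These counts describe dependence on processing and do not set the members against other genes. Of the called members' values under alternatives, 254 of 264 in 231:TKO after siMyc stayed past the threshold, 10 of 15 in parental 231, 53 of 80 untreated and 205 of 224 with siNT.

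Deviations of same-numbered replicates correlated at 0.024 and 0.024 untreated, at -0.145, 0.127 and 0.262 in 231:TKO, and at -0.809, 0.628 and -0.743 in parental 231. With 2 libraries per group the untreated values are the same by construction, and the parental values depend on the pair that stood apart. They show no steady pairing by number but cannot exclude one. A replicate block gave 2 members higher untreated, 0 lower in parental 231 after siMyc, 23 lower in 231:TKO after siMyc, and 4 higher and 13 lower with siNT. Leaving out 1 untreated library leaves that arm with 1 sample, which is assumed to vary like the other group.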
